A study of Arabidopsis thaliana with 12 samples.

Results

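PRK and AT3G47650 are nuclear genes of Arabidopsis thaliana whose proteins serve carbon fixation in the chloroplast. They were chosen as the rows of the deposited array table whose platform annotation lists exactly 1 gene, that gene being PRK (AT1G32060) or AT3G47650. They were selected on the difference between light and dark that this table shows for them, which gives 2 genes of the 692 probes that match 1 gene and of 3439 probes in all. RNA was compared between 6 samples of wild-type plants (WT, ecotype Columbia 0) given 1 h of light after the night and 6 samples of the same ecotype left in darkness overnight. The labels give no tissue, plant age or harvest time, nor whether each sample came from its own plants, so that p-values cover the spread between these arrays alone, and that spread may be technical. With these groups, light cannot be told apart from time after the night or from handling by group.

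The Calvin cycle fixes CO2 in the chloroplast stroma. Rubisco, built from large and small subunits, joins CO2 to ribulose bisphosphate, and PRK, phosphoribulokinase, uses ATP to make that acceptor anew. PRK is known as an enzyme that is held inactive in darkness with glyceraldehyde phosphate dehydrogenase and the small protein CP12, and that thioredoxin reduces to its active form in light. AT3G47650 is described as a plastid protein with a DnaJ-type zinc finger, like BSD2. BSD2, first known from maize, is a chaperone that holds newly folded Rubisco large subunits until the small subunits join.

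Each array gave 1 relative intensity for each of 3439 probes on a linear scale that ends at 100. Column sums ran from 2943 to 3683 and column medians from 0.204 to 0.289, and 11.7 to 15.7% of the values of an array were exactly 0. Levels below are intensities after quantile normalization, called scaled intensities, and the number of arrays limits their precision. A level of one probe cannot be set against that of another, so each gene is compared only with itself. Replicate numbers 1 and 2, 3 and 4, and 5 and 6 of a group may be repeat measurements of 1 sample, which would make errors and p-values over 6 arrays too small.

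Both genes had higher signal after 1 h of light on every array, by about the same factor over all arrays. Without light replicate 2 the factors were 3.52 for PRK and 4.22 for AT3G47650. Both genes were chosen with their light difference known, so it is described here and not tested. The scaled intensity of PRK in light was 1.88 at the lowest, 2.08 at the median and 4.82 at the highest, against 0.394, 0.612 and 0.759 in darkness. The groups did not overlap, and the lowest light value was 2.48 times the highest dark value. The mean was 2.49 ± 1.15 in light and 0.592 ± 0.159 in darkness (SD, n = 6 each). The log2 difference, light minus dark, was 2.02 with an SE of 0.26 from limma, a 4.07-fold higher geometric mean in light.

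AT3G47650 had scaled intensities of 2.34, 2.72 and 2.97 in light (lowest, median, highest), against 0.459, 0.655 and 0.818 in darkness. Here too the groups stood apart, with the lowest light array 2.86 times the highest dark array. Means were 2.71 ± 0.24 in light and 0.650 ± 0.119 in darkness (SD, n = 6 each), and the log2 difference was 2.07 with an SE of 0.13, or 4.21-fold. As background, every light value lay above every dark value in 13.2% of the 2966 probes tested, and in 25.9% of the 742 probes with the highest mean level, to which both genes belong. Nothing is read from this, because both genes were picked for their difference.

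**Figure D1:**
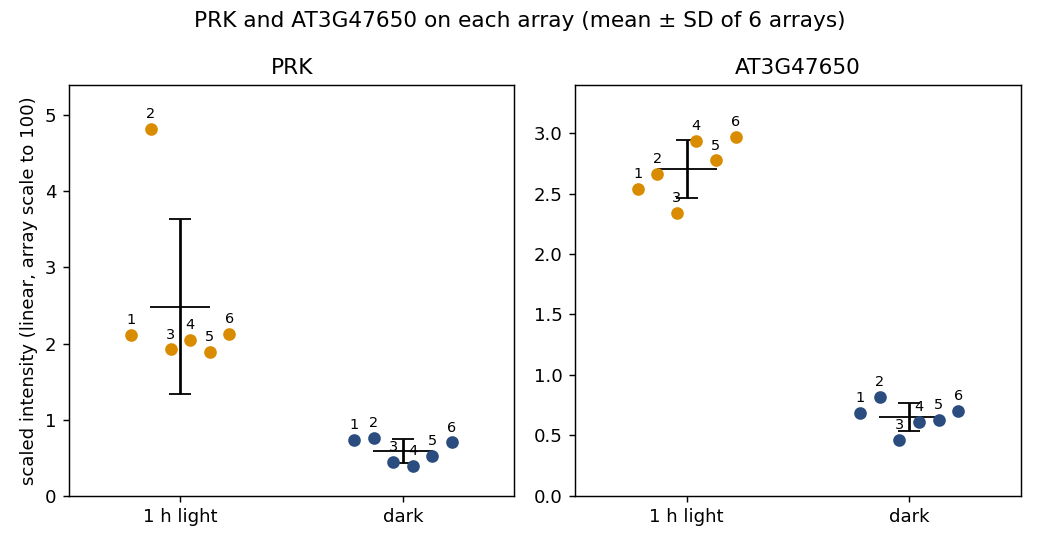
Scaled intensity (linear, from 0) of PRK and AT3G47650 on each array, 1 h light at left and dark at right of each panel; points are arrays with their replicate numbers, and black marks are the mean ± SD of 6 arrays. Light replicate 2 of PRK lies at 4.82 above the other light arrays, while all light points of both genes lie above all dark points; the vertical scales of the panels differ and belong to different probes.

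The table as deposited, before any scaling between arrays, showed the same separation. PRK ran from 1.42 to 4.41 in light, against 0.499 to 0.896 in darkness, and AT3G47650 from 2.06 to 2.62 in light, against 0.569 to 0.965 in darkness. The log2 differences of the deposited values were 1.60 for PRK and 1.63 for AT3G47650. These values are smaller than after quantile normalization, and the median over all probes tested was then -0.21, against -0.01 after it. With arrays divided by their 75th percentile the differences were 1.97 and 1.99, beside a median over all probes of 0.16.

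**Figure D2:**
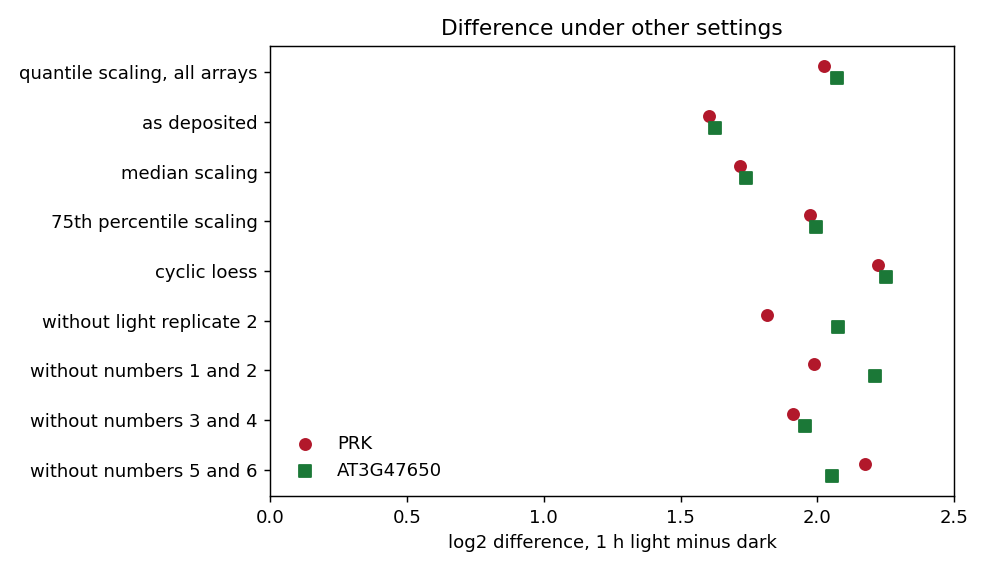
Log2 difference, 1 h light minus dark, of PRK (circles) and AT3G47650 (squares) under other scalings and with arrays left out. All values lie between 1.60 and 2.25, lowest for the values as deposited and highest after cyclic loess.

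The place of each gene within its own array needs no scaling between arrays. PRK was brighter than or equal to 94.3 to 97.4% of the probes on the light arrays, against 66.5 to 84.4% on the dark arrays. For AT3G47650 these percentiles were 95.2 to 96.0 in light and 71.5 to 85.7 in darkness. Both genes passed the filter on dim probes, and neither was listed at 0 on any array, so the floor given to low values played no part in their differences. Among the 157 single-gene probes that belong to these 742 bright probes, the difference of AT3G47650 was number 2 and that of PRK number 4 in size among rises, and over all 598 single-gene probes tested they were numbers 19 and 22. These places describe the values on which the genes were chosen.

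Over all arrays the log2 values of PRK spread more widely than those of AT3G47650 in both groups, but in light this rested on 1 array. Light replicate 2 of PRK was at 4.82, while the other 5 light arrays lay between 1.88 and 2.13. Its partner in number, light replicate 1, was at 2.12, which makes it 2.28 times its neighbour, whereas the other light pairs of PRK differed by 1.06- and 1.13-fold. Without light replicate 2 the light mean of PRK was 2.02 ± 0.11 (SD, n = 5), against 0.592 ± 0.159 in darkness (SD, n = 6), and the log2 difference was 1.82. AT3G47650 on the same array was at 2.66, near its light median, and its log2 difference without that array was 2.08.

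With all arrays, the SD of log2 values of PRK was 0.52 in light and 0.41 in darkness, at percentiles 95.4 and 95.0 of the 742 bright probes and 64.2 and 60.8 of all probes tested. AT3G47650 had SDs of 0.13 in light and 0.28 in darkness, at percentiles 24.5 and 81.7 of the bright probes and 7.38 and 43.9 of all probes tested. Without light replicate 2 the order in light turned, with an SD of 0.08 for PRK and 0.15 for AT3G47650. That array was the farthest from the others for PRK, so leaving it out had to lower the SD of PRK. Nothing is read from the turned order. The median SD of the bright probes was 0.18 in each group. An array was counted as set apart where its gap to the next array passed Dixon's critical value for 6 values. Light replicate 2 was set apart as the highest light array for 6 of these 742 probes and as the lowest for 12, against 1 to 5 and 2 to 13 for the other light arrays. Its median correlation with the other light arrays was 0.837, against 0.822 to 0.876 for the others.

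In darkness the means of numbers 3 and 4 were the lowest for both genes, and those of numbers 1 and 2 the highest. The pair means of PRK in darkness were 0.747 for numbers 1 and 2, 0.416 for 3 and 4, and 0.612 for 5 and 6. Those of AT3G47650 were 0.751, 0.536 and 0.664. In light the pair means of PRK were 3.47, 1.98 and 2.005, and those of AT3G47650 were 2.60, 2.64 and 2.87. Taken over 3 pair means, the SD of PRK was 0.85 in light and 0.166 in darkness, and that of AT3G47650 0.146 in light and 0.108 in darkness (n = 3 each).

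Variation within a group was not used to choose the genes, so their relation there was tested. Among the 6 light arrays Pearson's r between the log2 values of PRK and AT3G47650 was -0.01 (two-sided exact permutation p = 0.986) and Spearman's rho was 0.20 (exact p = 0.714). Among the 6 dark arrays r was 0.77 (exact p = 0.0375) and rho 0.89 (exact p = 0.0333). Adjusted by Benjamini-Hochberg over these 4 values, the exact permutation p-values were 0.986 and 0.952 in light and 0.075 for both in darkness, so none passed 0.05. Without the 2 arrays farthest from the median of PRK, r was 0.65 in light (without numbers 2 and 5) and 0.79 in darkness (without 3 and 4), over 4 arrays each. Without light replicate 2 alone, r in light was 0.37 (n = 5, exact permutation p = 0.475) and rho 0.50. Under other scalings of all arrays, r in light was 0.40 as deposited and 0.49 with arrays divided by their median. It was 0.47 with arrays divided by their 75th percentile and 0.46 after cyclic loess, so the light r near 0 depended on the scaling. In darkness r was 0.66, 0.79, 0.76 and 0.72 in the same order. The difference between the light and dark values of r was not tested. Dark arrays with consecutive numbers were more alike over the 1483 brighter probes (r of deviations from 0.0385 to 0.453) than other dark pairs (at most -0.167), and the part of this in the dark r was not tested.

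**Figure D3:**
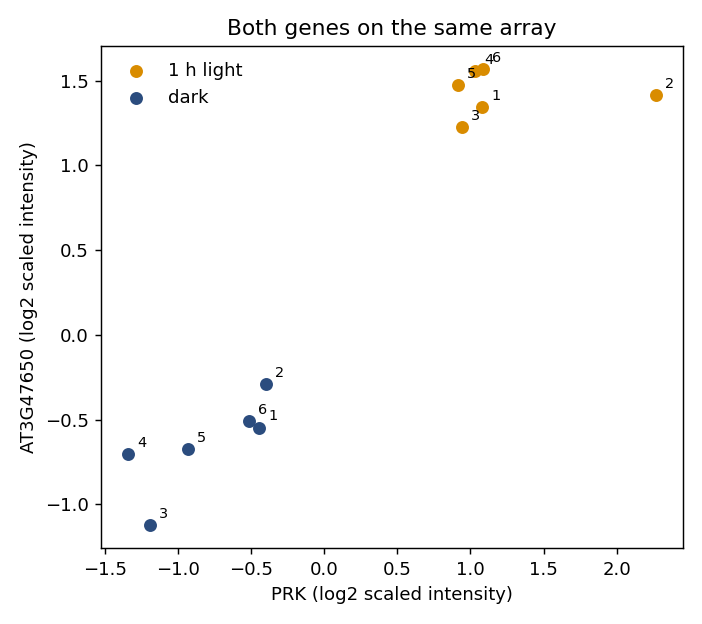
Log2 scaled intensity of PRK (x axis) against AT3G47650 (y axis); each point is 1 array with its replicate number, orange for 1 h light and blue for dark. Light replicate 2 lies far to the right at a PRK value of 2.27 and an AT3G47650 value of 1.41, and the dark points spread from arrays 3 and 4 to arrays 1 and 2.

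To find the genes with the most similar pattern, each probe was centred on its mean over the 12 arrays, and the root mean square of the log2 differences from PRK or AT3G47650 was taken over the 12 arrays. This measure holds the light difference that chose both genes, and it is given as a description. Of the other 597 single-gene probes tested, AT3G47650 was the nearest to PRK, at 0.39, where the median probe was at 1.24. PRK was number 6 in nearness to AT3G47650. Without light replicate 2 the distance was 0.23 and each gene was the nearest to the other. On the values as deposited AT3G47650 was number 2 for PRK, and PRK number 9 for AT3G47650.

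Besides AT3G47650, the genes nearest to PRK were AT5G19210 at 0.43, AT1G54500 at 0.44, AT1G32730 at 0.45, AT5G53920 at 0.45 and AT3G06570 at 0.47. Nearest to AT3G47650 were AT1G32730 at 0.23, AT5G19210 at 0.25, PRA1.B6, a member of the prenylated Rab acceptor family, at 0.36, AT3G06570 at 0.38 and AT5G53920 at 0.38. The lists shared 4 of 5 genes. AT5G19210 was at 1.82 ± 0.13 in light and 0.445 ± 0.070 in darkness, a log2 difference of 2.04. AT1G32730 was at 4.36 ± 0.31 in light and 0.912 ± 0.124 in darkness (SD, n = 6 each), a log2 difference of 2.27. In AT1G54500, PRA1.B6, AT3G06570 and AT5G53920 the log2 difference was smaller, from 1.46 to 1.48.

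**Figure D4:**
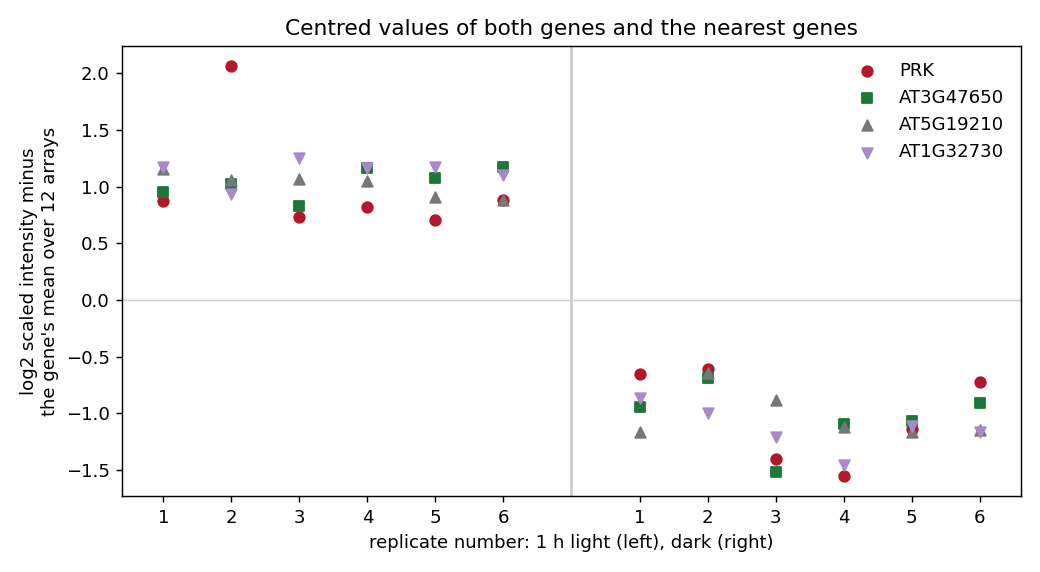
Log2 scaled intensity minus the gene's own mean over 12 arrays (y axis) for PRK, AT3G47650, AT5G19210 and AT1G32730 on each array, with the 6 light arrays at left and the 6 dark arrays at right by replicate number. The 4 genes all lie above their own means in light and below them in darkness, and PRK on light replicate 2 stands above the rest. Within a group they can differ, as on dark replicate 3, with AT3G47650 at -1.52 and AT5G19210 at -0.88.

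The neighbouring steps of carbon fixation were followed in 7 gene lists of 110 loci. Of these, 8 loci had a probe of their own, the 2 genes described above included. The lists for photorespiration, for export and storage of the products, and for markers of phloem, guard cells, epidermis and root had no single-gene probe, so no cell type could be checked. In the Calvin cycle list the only other gene with its own probe was SBPASE, sedoheptulose bisphosphatase, which regenerates the acceptor upstream of PRK. Its probe was listed at 0 on all 12 arrays and was not tested.

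The remaining 5 genes were tested in limma's fit across all 2966 probes, with Benjamini-Hochberg adjustment. Of these, 1 was higher in light, 1 was lower and 3 did not pass. That is 40% passing, against 42.6% of all 598 single-gene probes tested (20.2% higher, 22.4% lower) and 40.4% of all 2966 probes (19.9% higher, 20.5% lower), so the count is near the background. Their median log2 difference was 0.46, against 0.01 for all single-gene probes tested. This median is the value of 1 gene, Cpn60beta3, which did not pass. The 5 values ran from -0.59 (NTRC) to 0.72 (Cpn60beta4), and AT5G17840 was also below 0 (-0.10). With the consecutive numbers averaged, none of the 5 passed in limma, where 3 had an unadjusted p under 0.05 and 814 of all 2966 probes passed.

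The plastid chaperonin is a chamber in which new proteins fold, the Rubisco large subunit among them, and 2 of its beta subunits had a probe. Cpn60beta4, known for its part in folding a subunit of the plastid NDH complex, rose. It was at 0.296, 0.401 and 0.535 in light (lowest, median, highest), against 0.139, 0.258 and 0.314 in darkness. The highest 5 light arrays lay above all dark arrays. Its log2 difference was 0.72 (SE 0.20, limma adjusted p = 0.0143). Averaging consecutive numbers ended the call (limma adjusted p = 0.0683), as did leaving out numbers 1 and 2 (0.0534) or 5 and 6 (0.0839).

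Cpn60beta3 was at 0.273, 0.296 and 0.338 in light, against 0.127, 0.225 and 0.306 in darkness, and the groups overlapped. Its log2 difference of 0.46 did not pass (SE 0.19, limma adjusted p = 0.0718). It passed with arrays divided by their 75th percentile (0.0133), with the floor at the 25% quantile (0.0356) and without dark replicate 4 (0.0327). Without dark replicate 6 its log2 difference was 0.30, and without numbers 5 and 6 of both groups it was 0.20 (limma adjusted p = 0.354). In the Rubisco folding and assembly list, 2 probes match the same pair of genes and no other gene, and both were tested. Neither passed, with log2 differences of 0.49 (SE 0.21, limma adjusted p = 0.0868) and -0.03 (SE 0.77, limma adjusted p = 0.977). The second probe gave low values, at 0 to 0.080 in light and 0 to 0.060 in darkness. It was at the floor on 1 array of each group.

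In the list for thioredoxin and CP12 control, NTRC, a plastid thioredoxin reductase that draws on NADPH, fell. It was at 0.143, 0.262 and 0.323 in light, against 0.332, 0.374 and 0.412 in darkness. All 6 light arrays lay below all dark arrays, which was so for 13.4% of the probes tested. Its log2 difference was -0.59 (SE 0.18, limma adjusted p = 0.0209). Dividing arrays by their 75th percentile ended the call (0.0551), as did averaging consecutive numbers (0.0916) and leaving out numbers 1 and 2 (0.0528), 3 and 4 (0.0706) or 5 and 6 (0.0823). Without numbers 3 and 4 its log2 difference was -0.38.

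AT2G04700 of the same list was at 0.0878, 0.239 and 0.312 in light, against 0.0901, 0.150 and 0.179 in darkness. Light replicate 2, the array on which PRK was highest, was the lowest light array here, and the other 5 lay above all dark arrays. The log2 difference of 0.66 did not pass (SE 0.30, limma adjusted p = 0.104). Without light replicate 2 it was 0.92 and passed (0.00355), and with the replicate number as a block it also passed (0.0253). It passed as well with arrays divided by their 75th percentile (0.0219), with the floor at the 25% quantile (0.0072) and without numbers 1 and 2 (0.0225). A probe that matches 3 thioredoxin genes of this list and no other gene did not pass, with a log2 difference of 0.46 (limma adjusted p = 0.0577).

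AT5G17840, the only gene of the list of DnaJ-type proteins and other plastid chaperones with its own probe, was at 0.338, 0.464 and 0.601 in light, against 0.353, 0.495 and 0.643 in darkness. The groups overlapped almost wholly, and the log2 difference of -0.10 did not pass (SE 0.18, limma adjusted p = 0.709). It did not pass under any of 28 other settings, with log2 differences from -0.44 to -0.0007. The differences between AT5G17840 and AT3G47650, and between the other listed genes and PRK, were not tested, because PRK and AT3G47650 were chosen for theirs.

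**Figure D5:**
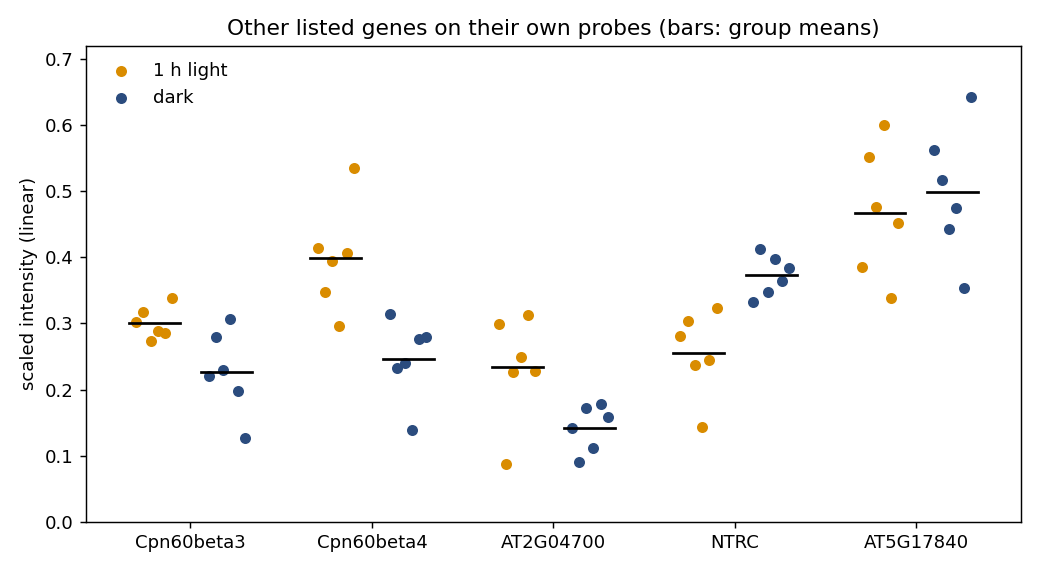
Scaled intensity (linear, from 0) of the 5 other listed genes on each array, 1 h light (orange) left of dark (blue) for each gene, with points for arrays and black bars for group means. Cpn60beta4 is mostly higher and NTRC lower in light, while the groups overlap for Cpn60beta3 and AT5G17840. For AT2G04700, 1 low light array lies just below all dark arrays.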

How the data were processed

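Intensities were used as the authors deposited them, 1 per probe on each array and linear. The sources used here do not give how they were made. Column sums differed by 1.25 times and medians by 1.42 times, so arrays were quantile normalized before log2, with values under the 1% quantile of positive values (0.0067) raised to it. The 473 probes at this floor on more than 6 of 12 arrays were left out. Differences were fitted with lmFit and eBayes of limma 3.58.1 (R 4.3.3), two-sided, with Benjamini-Hochberg adjustment over 2966 probes and a threshold of 0.05. The fit was tested on simulated data with independent errors on each array, so that test did not cover arrays that vary together. Figures were drawn with matplotlib 3.10.9.

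PRK, AT3G47650 and the gene lists were chosen with earlier results of these data known. The text names both genes, every listed gene with its own tested probe, and the 5 nearest genes of each by root mean square difference. SBPASE, not tested, was named outside this rule. An old platform annotation, updated through a TAIR10.1 gene table, gave the names. Of the probes with several genes (870), tested probes whose genes all belong to 1 list were given by list, and 1877 probes have no name here. A further 4 probes match a listed gene but not only genes of 1 list. Of these, 2 were tested in limma, and 1 passed as higher in light (log2 difference 0.68) and 1 as lower (-1.21).

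Light and dark arrays share replicate numbers. Over the 1483 brighter probes, same-numbered arrays deviated together from their group means (r from 0.301 to 0.557), which meets the rule set for pairing. The labels do not state this pairing, every SE and adjusted p printed is from the fit without it unless the block is named, and the fit with the number as a block is an alternative. Within dark, consecutive pairs correlated at 0.0385 to 0.453, against at most -0.167 for other pairs, and within light at -0.114 to 0.287, against at most 0.0263. Alternatives were the replicate block, pair means, a random block for pairs, other scalings, floors, filters and variance models, and leaving out arrays.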

Additional observations from a re-analysis of the deposited data

Results flagged for a closer look

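Among 32 sets of 6 values (both groups of each named or listed probe), 3 held an array whose gap to the nearest other array, as a share of the range of the 6 values, was above Dixon's critical value for 6 values, and chance gives this in about 1 set in 20. PRK on light replicate 2 was at 2.27 on the log2 scale, against a median of 1.03 on the other light arrays. AT2G04700 on the same light replicate 2 was at -3.51, against -2.004, so that this array was far high for one gene and far low for the other. Cpn60beta4 on dark replicate 4 was at -2.85, against -1.86 on the other dark arrays. Such gaps also occurred among the 742 bright probes, where light replicate 2 was set apart as the highest for 6 and as the lowest for 12. For dark replicate 4 these counts were 6 and 5. The count of 3 sets was not tested against them.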

How the results depend on the processing

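The difference of PRK stayed within 1 SD between arrays of its value under all 24 other settings, from 1.60 to 2.22, and that of AT3G47650 under 22 of 24. That SD is each gene's own (0.47 for PRK and 0.22 for AT3G47650, pooled over both groups), so the limit was wider for PRK. Both genes were lower as deposited (1.60 for PRK, 1.63 for AT3G47650) and with arrays divided by their median (1.72 and 1.74). Both scalings also lowered the median of all probes (-0.21 and -0.09). Leaving out arrays or number pairs gave 1.82 to 2.18 for PRK and 1.96 to 2.21 for AT3G47650. Lowest light and highest dark arrays stayed apart under every scaling run, by at least 0.66 for PRK and 1.01 for AT3G47650 on the log2 scale. The correlations within a group passed in none of 21 settings (lowest adjusted exact permutation p 0.0667 in dark and 0.242 in light). These settings are not separate tests. Other floors, and arrays left out of the other group alone, left r unchanged (-0.01 in light, 0.77 in dark). Leaving out a number pair leaves too few arrays for any adjusted exact p under 0.05, so those settings could not pass. Leaving out arrays moved r from -0.34 to 0.66 in light and from 0.62 to 0.93 in dark. Of the 5 listed genes, 2 passed in all arrays. With the floor at the 25% quantile 4 passed, where 1203 of the 2335 probes then tested passed. With arrays divided by their 75th percentile 3 passed, all higher in light, beside 1325 of 2962 probes. With means of consecutive numbers 0 passed (3 at an unadjusted limma p under 0.05), beside 814 of 2966 probes. When arrays or number pairs were left out, 0 to 3 passed. The 0 was without numbers 5 and 6 (2 at an unadjusted limma p under 0.05), beside 863 of 2966 probes. The means and the pairs left out use fewer samples. The count of all probes passing was 1198, with 814 to 1349 under the other settings and 1314 with the replicate block. That block changed 1 call among the 5 listed genes, AT2G04700. Higher against lower probes were 589 and 609, but 423 and 879 as deposited, 528 and 821 with median scaling and 781 and 544 with the 75th percentile. The mean and SDs without light replicate 2 were added after the data were seen. So was likeness to PRK or AT3G47650 over other scalings and without that array.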
